A study of Homo sapiens with 6 samples.

Results

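The p53 target genes described here are 35 genes taken as targets of the transcription factor p53, with CDKN1A as the best known of them. How firmly each is established as a target was not checked. They are listed by gene symbol, and all 35 are among the 24462 different symbols of a bulk RNA-seq dataset. The list was made with earlier results of these data known. The dataset compares 3 libraries from 1CT cells (genotype WT) with 3 libraries from 1CT-A cells (genotype APC KD). 1CT is an immortalized line of human colonic epithelial progenitor cells with introduced hTERT, the catalytic subunit of telomerase, and 1CT-A is derived from it by depletion of wild type APC. Both lines are untreated and grow in the same medium, which holds EGF, hydrocortisone, insulin and 2% FBS. Per the labels the libraries are QuantSeq libraries, a kit known for reading the 3′ end of polyadenylated RNA. The study's methods differ, since their section on bulk RNA sequencing mentions a cDNA microarray. The labels are followed here. Whether 1CT carries a control vector is not given in the sources used here, and nothing says that the libraries of a line come from separate cultures, so p values measure only the spread between these libraries.

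p53 is a DNA binding protein that is held at a low level by the ubiquitin ligase MDM2 and accumulates when DNA is damaged or when oncogenes are active. It then raises genes that stop the cell cycle, repair DNA, adjust metabolism or start cell death, and it also raises MDM2 itself, which closes a feedback loop. In colorectal cancer, loss of APC is regarded as an early step.

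The total count of a library ranges from 7788679 to 8452258 for 1CT and from 11158108 to 12602988 for 1CT-A, so depth and cell line cannot be told apart. Levels are given as CPM, the counts of a gene per 1000000 counts of the library, and 3 counts, the smallest number taken as visible, correspond to 0.355 to 0.385 CPM in 1CT and, with the deeper libraries, 0.238 to 0.269 CPM in 1CT-A. APC, the depleted gene, is at 49.3, 43.8 and 46.6 CPM in 1CT and falls to 31.5, 30.0 and 34.4 CPM in 1CT-A, in the direction of the labels (log2 fold change -0.58, edgeR adjusted p = 1.8e-04). The epithelial label has little support from its markers. EPCAM, VIL1, CLDN3 and GRHL2 have 0 counts in each of the 6 libraries, 10 of the 12 epithelial markers have at most 14 counts in any library, and the list sums to 13.6 to 17.7 CPM in 1CT, compared with 3.32 to 7.29 CPM for 1CT-A. The 12 mesenchymal markers all have enough counts for the test, with 4 higher and 5 lower in 1CT-A. This is 33.3% higher and 41.7% lower, beside 25.0% and 26.0% of all genes tested. The 12 markers sum to 45015 to 53078 CPM in 1CT, compared with 22257 to 23661 CPM for 1CT-A. Most of this sum is FN1, which encodes fibronectin (log2 fold change -1.32, edgeR adjusted p = 1.1e-08). The other 11 markers sum to 4778 to 5798 and 4559 to 4836 CPM, which overlap. Among them COL3A1 and TWIST1 rise most (2.37 and 1.87, edgeR adjusted p = 2.7e-07 and 1.7e-07). PDGFRB and THY1 fall most (-0.98 and -0.91, edgeR adjusted p = 4.1e-05 and 2.4e-06). DCN and ZEB1 are also higher, and COL1A1 and VIM are also lower. The 8 immune markers sum to 12.4 to 15.1 and 9.12 to 10.5 CPM, with PTPRC, CD3E and NKG7 at 0 counts throughout. Most of this sum is CD68, which is lower in 1CT-A (log2 fold change -0.41, edgeR adjusted p = 0.038). The 8 endothelial markers sum to 3.85 to 7.37 and 1.17 to 2.63 CPM. Most of that sum is TEK, which is lower too (log2 fold change -1.49, edgeR adjusted p = 0.0036). The part of these markers in the differences below was not tested, and fewer cells of a type and less RNA per cell cannot be told apart in bulk libraries.

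Most p53 target genes with enough counts are lower in 1CT-A than in 1CT. Of the 35 genes, 32 have enough counts for edgeR's quasi-likelihood test, of which 20 fall and 4 rise in 1CT-A relative to 1CT and 8 do not pass, with the threshold at an adjusted p of 0.05 (Benjamini-Hochberg over all 12514 genes tested). Over all genes tested 51.0% pass, 26.0% as lower and 25.0% as higher, whereas among the 32 genes 62.5% are lower and 12.5% are higher. Because the genes were chosen with earlier results of these data known, these shares only describe the list. The median log2 fold change of the 32 genes is -0.39, beside -0.01 over all genes tested. At least 2-fold lower are 5 of the 32 genes, CYFIP2, PLK3, TP53INP1, CDKN1A and BTG2, and 0 are at least 2-fold higher, beside 9.92% and 4.0% of all genes tested. The libraries of 1CT and 1CT-A separate fully for 25 of the 32 genes, 20 lower and 5 higher, beside 59.7% of all genes tested. CYFIP2 passes the filter on low counts through 1CT, since only 1 of its 1CT-A libraries lies above the level of that filter, so its presence among the lower genes is partly fixed by the filter.

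**Figure D1:**
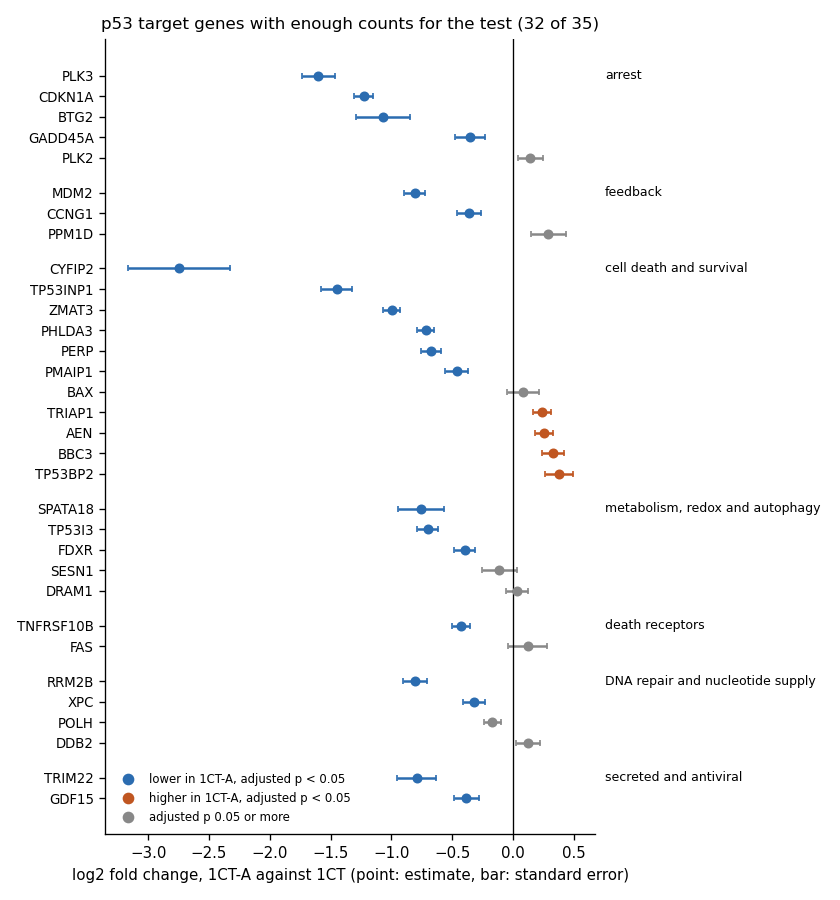
Log2 fold change (1CT-A over 1CT) for the 32 p53 target genes tested, grouped by role, with the standard error as the bar and the color giving the call of edgeR's test. The 20 lower genes reach from -0.32 (XPC) to -2.75 (CYFIP2), and the 4 higher genes, all in the cell death and survival group, from 0.24 to 0.38.

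The promoters of some of these genes hold a close match to the p53 binding sequence near an annotated start of the gene. These are shown so that the letters can be set beside the expression values. The p53 consensus is a pair of 10-base elements, each with 3 purines, C, 2 bases that are A or T, G and 3 pyrimidines, and it reads the same on both strands. RefSeq promoter sequences (GRCh38.p14, from 250 bases before to 50 bases after a gene's start) are matched by symbol for 28 of the 35 genes. Where a symbol has several such windows, the closest match over all of them is kept, so the start meant can be an alternative one. Within 2 mismatches and without a gap between the elements, the consensus is found in 4 of the 28 genes, DDB2, AEN, FAS and MDM2, beside 0.82% of the 27305 genes of the promoter table. The best match of CDKN1A in this window, shown for comparison, has 5 mismatches. The 20 bases of the match are in capitals, with 5 bases on each side.
DDB2 (1 mismatch, chr11:47214969-47214988, plus strand): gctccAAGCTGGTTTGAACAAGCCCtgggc
AEN (2 mismatches, chr15:88621306-88621325, plus strand): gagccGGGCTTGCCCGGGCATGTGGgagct
FAS (2 mismatches, chr10:88991309-88991328, plus strand): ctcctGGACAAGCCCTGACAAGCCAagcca
MDM2 (2 mismatches, chr12:68808923-68808942, plus strand): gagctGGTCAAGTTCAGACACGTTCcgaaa
CDKN1A (5 mismatches, chr6:36678541-36678560, plus strand): ccggcTGGCCTGCTGGAACTCGGCCaggct

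The 4 genes with a close match do not share a direction. MDM2 is lower in 1CT-A, AEN is higher, and DDB2 and FAS do not pass the test, with the values given for each below. A shorter motif, a pair of CATG separated by 6 bases of any kind, which reads the same on both strands and lies inside the consensus, occurs in the window of TRIAP1 alone among the 28 genes and in 0.472% of the genes of the table. A match describes letters and not a bound site, and the known p53 sites of CDKN1A lie further upstream than this window reaches. The submitters' processing notes name hg19, so these coordinates describe the RefSeq table and not the counting of the reads.

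Among the genes that stop the cell cycle, CDKN1A, which encodes the cyclin dependent kinase inhibitor p21, is at 618, 578 and 697 CPM in 1CT and at 272, 281 and 278 CPM in 1CT-A. Every 1CT library is above every 1CT-A library, and the 1CT-A libraries lie close together. The gene falls 2.34-fold in 1CT-A (log2 fold change -1.23, standard error 0.08, edgeR adjusted p = 6.1e-08). The replicates of 1CT scatter more than those of 1CT-A, 631 ± 60.1 against 277 ± 4.75 CPM (SD, n = 3 each), and the difference is larger than this scatter.

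PLK3, a stress responsive kinase of the Polo family, is at 31.9, 40.9 and 41.7 CPM in 1CT and at 11.5, 15.2 and 12.1 CPM in 1CT-A. The lines do not overlap, and the fall is 3.03-fold (log2 fold change -1.60, standard error 0.14, edgeR adjusted p = 9.1e-07). BTG2, an antiproliferative gene that slows entry into S phase, is at 7.93, 5.55 and 5.52 CPM in 1CT and at 2.96, 2.81 and 3.49 CPM in 1CT-A, again without overlap. The fall is 2.10-fold (log2 fold change -1.07, standard error 0.22, edgeR adjusted p = 0.0014) and rests on 32 to 67 counts per library.

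The other genes of this group have smaller fitted differences or too few counts. GADD45A, whose protein slows the cell cycle and takes part in DNA repair, is at 74.9 ± 15.7 CPM on average for 1CT against 60.2 ± 1.79 CPM for 1CT-A (SD, n = 3 each), and the cell lines overlap. It passes the test (log2 fold change -0.35, edgeR adjusted p = 0.025), but it no longer passes without 1CT replicate 1 (-0.19, edgeR adjusted p = 0.15) or without any one of the 1CT-A replicates (edgeR adjusted p from 0.064 to 0.076). PLK2, a relative of PLK3 that acts in centriole duplication, is at 30.9 ± 4.25 and 35.1 ± 0.49 CPM (SD, n = 3 each) and does not pass (log2 fold change 0.14, standard error 0.10, edgeR adjusted p = 0.27). The difference between the fold changes of PLK2 and PLK3 was not tested.

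SFN and RPRM, both cell cycle arrest genes at the G2 phase, do not pass the filter on low counts. SFN is counted 9, 6 and 14 times in 1CT, and 4, 9 and 7 times in 1CT-A, whose libraries are deeper. Relative to depth this is a ratio of 2.08 of 1CT over 1CT-A (exact 95% interval 1.14 to 3.88, which covers counting error only), and the libraries of the lines overlap. In the edgeR fit without a filter SFN does not pass (log2 fold change -1.04, standard error 0.53, adjusted p = 0.116). RPRM has 1 count in 1CT replicate 1 and 0 in the other 5 libraries, which is under the limit of 3 counts in each library, and it does not pass in that fit (edgeR adjusted p = 0.463).

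**Figure D2:**
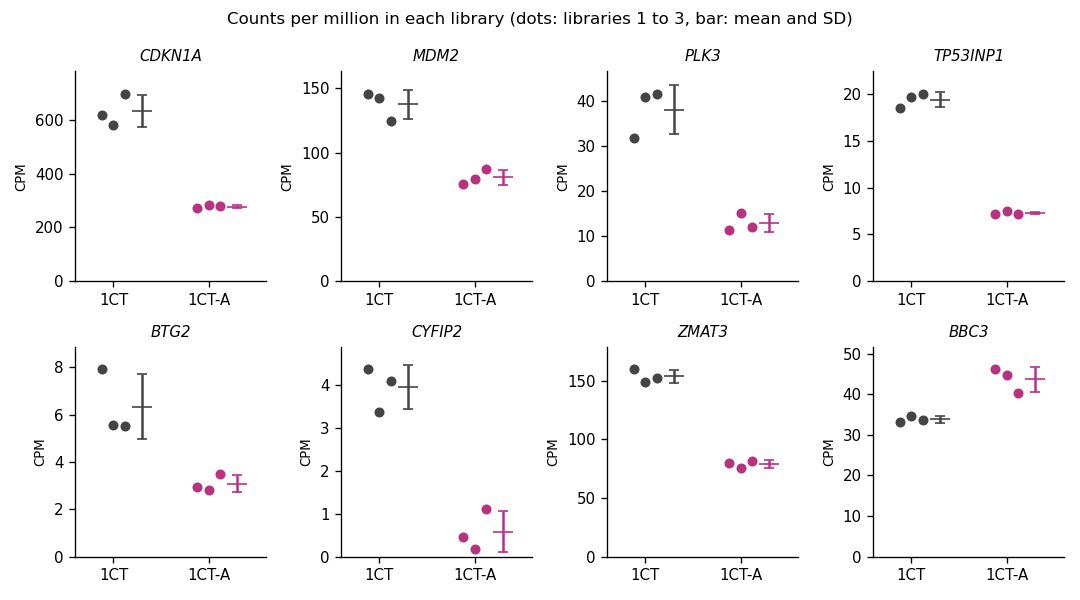
CPM of 8 p53 target genes in the 6 libraries, as dots for libraries 1 to 3 of each line, with the mean and the SD as a bar and with every axis starting at 0. In 7 panels each 1CT-A library lies below each 1CT library, and in the panel of BBC3 each 1CT-A library lies above, at 40.2 to 46.2 CPM against 33.1 to 34.8 CPM.

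Of the genes that feed back on p53, MDM2, the ligase that marks p53 for degradation, is at 146, 142 and 125 CPM in 1CT and at 75.4, 79.5 and 86.9 CPM in 1CT-A. The lines do not overlap, and the fitted level is 1.75-fold lower in 1CT-A (log2 fold change -0.81, standard error 0.08, edgeR adjusted p = 4.4e-06). CCNG1, which encodes cyclin G1, a partner of MDM2 and of protein phosphatase 2A, averages 42.8 ± 3.93 and 34.3 ± 3.02 CPM (SD, n = 3 each) and is also lower (log2 fold change -0.36, standard error 0.10, edgeR adjusted p = 0.0083). Without 1CT-A replicate 3 the value of CCNG1 is -0.29 and the adjusted p of edgeR's test is 0.058. PPM1D, a phosphatase that removes activating phosphates from p53 and its kinases, does not pass. Its levels are 9.07 ± 0.68 and 11.4 ± 1.17 CPM (SD, n = 3 each), without overlap (log2 fold change 0.29, standard error 0.14, edgeR adjusted p = 0.11).

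The 11 genes of cell death and survival are divided, with 6 lower, 4 higher and BAX not passing. This is 54.5% lower and 36.4% higher, beside 26.0% and 25.0% of all genes tested. CYFIP2, a component of the WAVE actin regulatory complex that is also linked to p53 dependent death, is at 4.38, 3.38 and 4.11 CPM in 1CT and at 0.448, 0.176 and 1.11 CPM in 1CT-A. This is the largest change of the group (log2 fold change -2.75, standard error 0.42, edgeR adjusted p = 1.3e-04), and it rests on 37, 28 and 32 counts in 1CT and on 5, 2 and 14 counts in 1CT-A. Without 1CT-A replicate 3 the log2 fold change becomes -3.65.

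TP53INP1, which promotes p53 activation and autophagy, is at 18.5, 19.7 and 20.0 CPM in 1CT and at 7.17, 7.46 and 7.22 CPM in 1CT-A. The replicates of either line lie close together, and the level is 2.73-fold lower (log2 fold change -1.45, standard error 0.13, edgeR adjusted p = 1.1e-06). ZMAT3, which encodes an RNA binding protein that affects splicing, is at 154 ± 5.51 CPM on average for 1CT against 79.1 ± 3.10 CPM for 1CT-A (SD, n = 3 each), just short of a 2-fold difference (log2 fold change -0.999, edgeR adjusted p = 2.3e-07).

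PHLDA3, an inhibitor of AKT, and PERP, a membrane protein of desmosomes with a role in apoptosis, are lower too, with log2 fold changes of -0.72 and -0.67 (edgeR adjusted p = 2.6e-06 and 2.1e-05). PHLDA3 averages 750.1 ± 12.5 and 468 ± 33.3 CPM, and PERP 146 ± 9.13 and 93.9 ± 8.88 CPM (SD, n = 3 each, 1CT first). PMAIP1, which encodes the BH3-only protein NOXA, averages 40.3 ± 3.25 and 30.02 ± 1.78 CPM (SD, n = 3 each) and is lower with a log2 fold change of -0.46 (edgeR adjusted p = 0.0012). BBC3, which encodes the other main BH3-only protein of the p53 response, PUMA, is higher instead, at 33.8 ± 0.84 CPM on average for 1CT against 43.7 ± 3.12 CPM for 1CT-A (SD, n = 3 each, log2 fold change 0.33, standard error 0.09, edgeR adjusted p = 0.0083). PMAIP1 and BBC3 each separate the lines without overlap, in opposite directions.

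BAX, which forms pores in the outer mitochondrial membrane, is at 252, 187 and 286 CPM in 1CT and at 299.9, 238 and 252 CPM in 1CT-A. The lines overlap, and the gene does not pass (log2 fold change 0.08, standard error 0.13, edgeR adjusted p = 0.63). It turns to -0.07 without 1CT replicate 2 and to -0.02 without 1CT-A replicate 1. The scatter of BAX within 1CT, an SD of 50.3 CPM, is 20.8% of its mean, and the median over the 32 genes is 8.70%.

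AEN, an exonuclease gene that acts in apoptosis, TRIAP1, which opposes apoptosis, and TP53BP2, which encodes the p53 binding protein ASPP2, are the remaining higher genes. Their log2 fold changes are 0.25, 0.24 and 0.38 (edgeR adjusted p = 0.012, 0.013 and 0.015), and their lines do not overlap. AEN averages 219 ± 11.5 and 268 ± 13.0 CPM, TRIAP1 193 ± 11.7 and 235 ± 5.66 CPM, and TP53BP2 15.4 ± 0.47 and 20.5 ± 1.62 CPM (SD, n = 3 each, 1CT first). Each call is lost in a fit that leaves out a library, which is 1CT-A replicate 1 for AEN (0.21, edgeR adjusted p = 0.057), 1CT replicate 1 for TRIAP1 (0.20, edgeR adjusted p = 0.060) and 1CT-A replicate 2 for TP53BP2 (0.34, edgeR adjusted p = 0.061). TRIAP1 also fails with upper-quartile normalization (0.18, edgeR adjusted p = 0.058).

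The death receptor genes show a lower level of TNFRSF10B, the TRAIL receptor DR5, and no detected difference of FAS, the receptor of FAS ligand. TNFRSF10B is at 122 ± 7.77 CPM on average for 1CT against 93.3 ± 2.07 CPM for 1CT-A (SD, n = 3 each, log2 fold change -0.43, standard error 0.08, edgeR adjusted p = 4.0e-04). FAS is at 12.8, 12.1 and 8.99 CPM in 1CT and at 14.5, 11.6 and 11.8 CPM in 1CT-A, with overlap (0.12, standard error 0.16, edgeR adjusted p = 0.55).

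TNFRSF10C, a decoy receptor for TRAIL, has 5, 4 and 5 counts in 1CT and 3, 2 and 1 counts in 1CT-A, below the filter. Relative to depth the ratio of 1CT over 1CT-A is 3.34 (exact 95% interval 1.21 to 10.6, counting error only), and the gene does not pass in the edgeR fit without a filter (log2 fold change -1.66, standard error 0.87, adjusted p = 0.126). The other TRAIL receptor genes of this family, named here after their values were seen, are TNFRSF10A at 5.09 ± 0.55 and 1.37 ± 0.22 CPM (SD, n = 3) and TNFRSF10D at 128 ± 5.52 and 61.6 ± 3.49 CPM (SD, n = 3), in 1CT and 1CT-A respectively. Both pass the test as lower, with log2 fold changes of -1.93 and -1.09 (edgeR adjusted p = 3.7e-05 and 2.0e-07).

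The 4 genes of DNA repair and nucleotide supply hold 2 lower genes and 2 that do not pass. Over all genes tested 51.0% pass and 26.0% are lower, so with 4 genes these counts only describe the group. RRM2B, a p53 inducible subunit of ribonucleotide reductase that supplies nucleotides outside S phase, is at 77.6 ± 10.4 CPM on average for 1CT against 45.6 ± 1.87 CPM for 1CT-A (SD, n = 3 each, log2 fold change -0.81, standard error 0.10, edgeR adjusted p = 1.7e-05). XPC, which recognizes damage in nucleotide excision repair, is at 54.3 ± 5.00 and 44.6 ± 0.93 CPM (SD, n = 3 each) and is lower as well (log2 fold change -0.32, edgeR adjusted p = 0.0086). DDB2, which acts with XPC on UV damage and whose promoter has the closest match to the p53 consensus, is at 33.1, 30.7 and 32.2 CPM in 1CT and at 32.3, 39.2 and 36.0 CPM in 1CT-A, with overlap (0.12, standard error 0.10, edgeR adjusted p = 0.31). POLH, a polymerase that copies past UV lesions, is at 199 ± 6.57 and 182 ± 6.07 CPM (SD, n = 3 each) without overlap, close to the threshold (log2 fold change -0.17, standard error 0.07, edgeR adjusted p = 0.0503), and it passes in 4 of the 14 alternative fits.

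Among the genes of metabolism, redox control and autophagy, TP53I3, a quinone oxidoreductase gene, FDXR, which encodes ferredoxin reductase of mitochondria, and SPATA18, which acts in the removal of damaged mitochondria, are lower. Their log2 fold changes are -0.70, -0.40 and -0.76 (edgeR adjusted p = 2.1e-05, 0.0022 and 0.0053), without overlap between the lines. TP53I3 averages 49.0 ± 2.04 and 31.0 ± 1.48 CPM, FDXR 81.4 ± 7.84 and 63.5 ± 1.64 CPM, and SPATA18 8.59 ± 2.06 and 5.23 ± 0.11 CPM (SD, n = 3 each, 1CT first). SESN1, a stress sensor that restrains mTORC1, averages 17.2 ± 3.19 and 16.4 ± 1.73 CPM, and DRAM1, a lysosomal membrane protein of autophagy, 55.2 ± 3.86 and 58.0 ± 4.88 CPM (SD, n = 3 each, 1CT first). Both overlap between the lines and do not pass, with log2 fold changes of -0.11 (standard error 0.14, edgeR adjusted p = 0.54) and 0.03 (standard error 0.09, edgeR adjusted p = 0.77). GDF15, a secreted stress cytokine, and TRIM22, an antiviral gene also induced by interferon, are lower, with log2 fold changes of -0.38 and -0.79 (edgeR adjusted p = 0.0073 and 0.0012). GDF15 averages 110.2 ± 17.1 and 86.7 ± 5.98 CPM, and TRIM22 15.6 ± 2.88 and 9.29 ± 1.22 CPM (SD, n = 3 each, 1CT first), again without overlap.

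Taken alone, a gene whose lines do not overlap reaches p = 0.1 in the exact permutation test (two-sided), the smallest value that 3 and 3 libraries allow, and the calls therefore come from the model over all genes. Of the 24 genes called, 18 are called in the same direction in each of the 14 alternative fits. These are 17 of the 20 lower genes and 1 of the 4 higher genes, BBC3. The same share over all genes called is not given here, so these counts only describe the list. The lower genes among the exceptions are GADD45A and CCNG1, described above, and CYFIP2, which does not reach 10 counts in every library and is not tested under that filter. The replicates have a median coefficient of variation of 8.70% in 1CT and 7.0% in 1CT-A for the 32 genes, beside 11.3% and 7.95% for all genes tested.

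Some of these genes share exon positions with a neighbor in GENCODE release 44, and how the counting treated the strand is not given in the sources used here, so reads of such pairs cannot be told apart. On the opposite strand these are CYFIP2 with ADAM19, FAS with ACTA2, MDM2 with CPM, POLH with GTPBP2, TNFRSF10B with RHOBTB2, TP53I3 with FAM228B and TP53INP1 with NDUFAF6. FAS also overlaps STAMBPL1 and TRIM22 overlaps OR56B1 on the same strand, and OR56B1 has 0 counts in each library. The neighbor is counted more often than the member for CYFIP2 and FAS and about as often for TP53INP1, with 79 to 164 counts per library for NDUFAF6.

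MDM4, a relative of MDM2 that binds and inhibits p53, is at 52.2 ± 6.17 CPM on average for 1CT against 57.5 ± 5.10 CPM for 1CT-A (SD, n = 3 each), and does not pass (log2 fold change 0.10, standard error 0.11, edgeR adjusted p = 0.45). CDKN2A, which encodes the MDM2 inhibitor ARF and the kinase inhibitor INK4A under the same symbol, does not pass either (0.08, standard error 0.07, edgeR adjusted p = 0.40), and reads of its products cannot be told apart. Of the relatives of p53, TP73 has 11 to 22 counts per library and does not pass (0.16, standard error 0.32, edgeR adjusted p = 0.70), and TP63 has at most 1 count.

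Over 25 genes that regulate p53 or are related to it, 23 have enough counts, 8 are higher, 3 are lower and 12 do not pass. The share that passes, 47.8%, is near the 51.0% of all genes tested. By direction, 34.8% are higher and 13.0% are lower, beside 25.0% and 26.0% of all genes tested. The higher genes include the damage kinase CHEK2 (log2 fold change 0.80, edgeR adjusted p = 9.2e-04), the acetyltransferase KAT5 (0.46, edgeR adjusted p = 5.1e-04) and the kinase HIPK2 (0.40, edgeR adjusted p = 3.8e-04). The lower genes include the coactivator EP300 (-0.34, edgeR adjusted p = 0.029) and PPP1R13B (-1.01, edgeR adjusted p = 0.023). The number of lower genes is 1 without 1CT replicate 2 and also without 1CT-A replicate 3. These examples were picked after their values were seen.

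**Figure D3:**
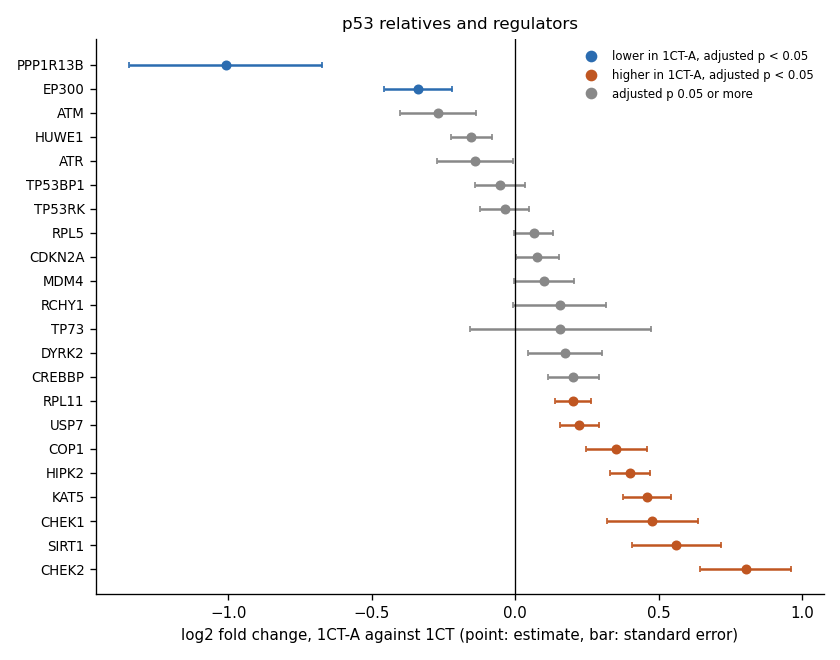
Log2 fold change (1CT-A over 1CT), with the standard error as the bar, for tested genes that regulate p53 or are related to it. PPP1R13B lies at -1.01 and CHEK2 at 0.80, while MDM4, CDKN2A and TP73 are among the 12 gray points that do not pass.

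With earlier results of these data known, 55 further p53 target genes, none among the 35, were listed from general knowledge of the pathway. Of these, 48 have enough counts, 20 are lower, 5 are higher and 23 do not pass, which is 41.7% lower and 10.4% higher beside 26.0% and 25.0% of all genes tested. The median log2 fold change is -0.24. Among those that pass the test and have a mean of at least 10 CPM, ACTA2, smooth muscle actin (-1.32), CD82, a tetraspanin (-1.28), and SLC12A4, a potassium chloride cotransporter (-1.17), are the lowest (edgeR adjusted p = 0.0011, 4.3e-06 and 2.0e-06). TNFAIP8, an antiapoptotic gene (0.88), WRAP53 (0.63) and IER5, an immediate early gene (0.21), are the highest (edgeR adjusted p = 1.2e-05, 0.0021 and 0.012). ACTA2 scatters widely between libraries, at 49.7 ± 20.9 CPM in 1CT and 20.5 ± 7.04 CPM in 1CT-A (SD, n = 3 each). The number of higher genes falls to 3 without 1CT-A replicate 3.

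**Figure D4:**
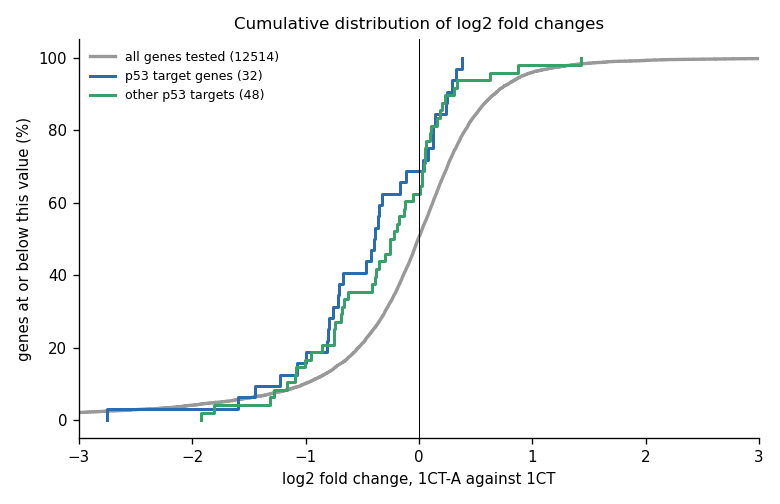
Share of genes (in percent) at or below each log2 fold change (1CT-A over 1CT), for all 12514 genes tested, the 32 p53 target genes and the 48 other p53 targets. The curve of the p53 target genes reaches its middle at -0.39 and ends at 0.38, and that of the other p53 targets reaches its middle at -0.24.

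A list of 18 cell cycle genes known to be repressed downstream of p21 through the DREAM complex, a transcriptional repressor, was added. It was made with the knowledge that cell cycle genes are higher in 1CT-A. Its direction is therefore fixed by the choice, and nothing is read from it. As a description, 18 of 18 are higher by edgeR's test, beside 25.0% of all genes tested, with log2 fold changes from 0.53 to 1.63.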

How the data were processed

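For each library the authors deposited raw counts, whole numbers of reads on gene symbols that are neither normalized nor pooled. The submitters' processing notes name Bowtie2, edgeR and hg19 without roles or versions, and the counting tool, the annotation and the treatment of strand are not given in the sources used here. Of the symbols, 286 are entered repeatedly and are summed. COP1 is read under its older symbol RFWD2, and 1 listed p53 target, TP53COR1, has no row.

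Counts are filtered with filterByExpr (minimum count 10), scaled by TMM (factors from 0.976 to 1.02) and compared by the quasi-likelihood test of edgeR 4.0.16 in R 4.3.3, without a block, over 12514 genes with Benjamini-Hochberg adjustment. Standard errors follow from the estimate and its F statistic. CPM values are counts scaled to 1000000 per library total, without TMM. The study's methods give a per-gene two-tailed test with a 2-fold limit, which is made for continuous values and is replaced here by a count test. DESeq2 1.42.0 and limma 3.58.1 serve as alternatives. The fit is tested on simulated data with 200 changed genes, a far smaller share than the 51.0% of genes called in the data. How the fit behaves with so many changed genes was not tested. Intervals and limits cover counting error only.

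Values of each library are given for CDKN1A, MDM2, members changed at least 2-fold and members below the filter, and also for BAX, DDB2 and FAS, chosen after their values were seen. Among the other p53 targets the 3 largest rises and falls called with a mean of at least 10 CPM are named. The search for the 20-base p53 consensus was added after the data were seen. The members and lists were chosen with earlier results of these data known. For 1 gene among the p53 regulators, values are not reported here.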

Additional observations from a re-analysis of the deposited data

How the results depend on the processing

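Alternatives cover the scaling (DESeq2's size factors, plain library sizes, upper quartile), the filter (none, or a minimum of 10 counts per library), the tool (limma-voom or DESeq2), a replicate block, a threshold of 0.01 and leaving out single libraries. The number of p53 target genes called is 24 and stays between 22 and 25 when a library is left out, with 18 to 21 lower and 3 to 4 higher. At an adjusted p under 0.01 it is 20, of which 19 are lower and 1 is higher. Shares of all genes tested under the alternatives, this threshold included, are not given here, so the counts only describe the lists. The median log2 fold change of the 32 genes is -0.45 with upper-quartile scaling, -0.35 with library size only and -0.44 to -0.37 when a library is left out. Of the other p53 targets, 3 rather than 5 are higher with upper-quartile scaling, with at least 10 counts in every library and at an adjusted p under 0.01, and 3 to 6 when a library is left out. Of the p53 regulators, 5 rather than 11 are called at an adjusted p under 0.01, 4 higher and 1 lower, and 1 to 4 are lower when a library is left out. Of 447 values of single p53 target genes under the alternative fits, 428 keep their direction and their side of the threshold, 9 no longer pass, 4 pass in addition, all of POLH, and 6 change sign, in BAX, SESN1 and DRAM1, which do not pass. Their log2 fold changes run from -0.0717 to 0.24 for BAX, from -0.23 to 0.0177 for SESN1 and from -0.036 to 0.0921 for DRAM1 when a library is left out, with -0.0717 for BAX without 1CT replicate 2, -0.0231 for BAX without 1CT-A replicate 1, 0.0177 for SESN1 without 1CT replicate 1, -0.0061 for DRAM1 without 1CT replicate 1 and -0.036 for DRAM1 without 1CT-A replicate 1, and DRAM1 is at -0.0214 with upper-quartile scaling. The cause was not tested. On the TMM scale the mean CPM of CDKN1A, MDM2, TP53INP1, BTG2, PLK3 and CYFIP2 moves by less than the SD. Without a filter SFN, RPRM and TNFRSF10C are tested too and do not pass.

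The labels number the libraries of both lines 1 to 3. Same-numbered libraries do not deviate together (correlations from -0.16 to 0.22, and 2 of 6 libraries correlate best with their own number), so the number is not taken as a pairing. With the replicate block 24 p53 target genes are called, 20 lower and 4 higher, with a median of -0.39.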
